A study of Homo sapiens with 6 samples.

Results

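The genes described here encode the constitutive proteasome, the protease that every cell keeps for degrading proteins tagged with ubiquitin. They were chosen by symbol alone, as genes whose current symbol starts with PSMA, PSMB, PSMC, PSMD, PSMF or PSMG followed by a digit, without the immunoproteasome subunits PSMB8, PSMB9 and PSMB10. Probe sets of the array named 44 such genes out of 19775 genes tested, with 86 probe sets out of 54613. Of these, 37 are subunits, assembly chaperones or an inhibitor of the proteasome, read by 74 probe sets. The other 7 genes match the rule only by their letters, being PSMC3IP and the noncoding RNAs PSMA3-AS1, PSMB8-AS1, PSMD6-AS2, PSMG3-AS1, PSMD7-DT and PSMD14-DT, and they are given apart. PSMB11, PSMC5, PSMD7 and PSMD13 were not analysed here.

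RNA was measured on 6 arrays of the breast cancer line MDA-MB-436, long kept in culture. Of these, 3 are labelled NF1-C2S transfected: their cells were stably transfected with a plasmid that the series record names as holding NF1-C2, and the condition label reads NF-C2. Whether the 3 spellings stand for 1 construct is not stated. As background, NF1-C2 is a name in use for a product of NFIC, a gene of the nuclear factor I family. The other 3 are labelled wild type, the same line without the plasmid. Both groups were grown in RPMI-1640 medium with serum and insulin. No empty-plasmid cells are named, and neither the plasmid's promoter nor the number of clones behind the transfected arrays is stated. The question here is how the genes of a large complex, whose parts are needed in fixed numbers, differ in expression with the plasmid. Since no label calls the replicates separate cultures, the p-values cover only array-to-array spread, which may be technical.

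The proteasome is a barrel closed by a cap. The core barrel has outer rings of alpha subunits (PSMA genes), which form the gate, and inner rings of beta subunits (PSMB genes), of which PSMB5, PSMB6 and PSMB7 cut protein chains. The cap has a base, with a ring of ATPases (PSMC genes) that unfold substrates beside scaffold and ubiquitin-binding subunits, and a lid, whose PSMD14 subunit removes ubiquitin. Dedicated chaperones help to assemble the barrel and the base and then leave. In mammalian cells the transcription factor NFE2L1 raises many of these genes together when proteasome activity is short, through antioxidant response elements in their promoters.

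Values are the log2 expression values that the authors deposited, and each gene is represented by the probe set with the highest mean among those naming only that gene. Changes are transfected minus wild type on the log2 scale, with the standard error (SE) and the Benjamini-Hochberg adjusted p over all genes from limma, and a gene is said to have risen or fallen where that p was under 0.05. In bulk RNA, fewer cells and less RNA per cell cannot be told apart. Correlations between arrays over all probe sets were 0.992 to 0.997 within the transfected group, 0.996 within the wild type group and 0.971 to 0.976 between the groups. The brightest probe set of NFIC averaged 8.25 in transfected and 8.47 in wild type arrays (log2 change -0.22, limma adjusted p = 0.047, and 0.0529 with the replicate number as a block), and its call also ended without any 1 of the 6 arrays (adjusted p = 0.0595 to 0.133). The sources do not say whether the plasmid's insert holds the sequence this probe set reads. NFIC is therefore no check of which arrays were transfected, and all directions below follow the labels. Of the 6 epithelial markers, KRT18 averaged 11.62 in transfected and 12.55 in wild type arrays, while CDH1 (3.44 and 3.42) and KRT19 (4.26 and 4.01) lay under 4.82, the median of all values, in both groups. Of these 6, KRT18 and KRT7 fell (-0.93 and -0.98) and 4 did not pass. EPCAM, 1 of the 4, read -0.75 with groups that did not overlap (limma adjusted p = 0.0602). It passed with the replicate block (0.0201), with trend and robust moderation (0.0267) and among bright probe sets alone (0.0456). Dropping transfected replicate 3 (0.0296) or removing the neighbours' shift (0.0268) also brought it past the test, and the remaining alternatives did not. Without probe sets ending in _x_at, _s_at or _a_at, KRT7 read -0.04 and did not pass (adjusted p = 0.888). Among 5 leukocyte markers CD14 rose by 0.82 and ITGAM fell by 1.21, while PTPRC averaged 3.86 in transfected and 3.65 in wild type arrays. The ITGAM call was also lost without probe sets of those endings (-0.11, adjusted p = 0.717). FAP fell by 1.33 among 6 fibroblast markers, and COL1A1 fell with its probe sets averaged (-0.47, adjusted p = 0.005). By their brightest probe sets 0 of 5 endothelial markers passed the limma test, but PECAM1 did with its probe sets averaged (-0.45, adjusted p = 0.00277). The part of these marker changes in the results was not tested.

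Proteasome genes did not move as 1 block. Among the 36 subunits, chaperones and inhibitor with a probe set of their own, 14 rose, 7 fell and 15 did not pass the test, which makes 58.3% called, against 31.9% of all genes. Higher calls were 38.9% of these genes against 15% of all genes, and lower calls were 19.4% against 16.9%. The probe sets of the subunits are bright, and bright genes were called more often on these arrays. Of the 3128 genes at least as bright as the dimmest ring, base or lid subunit, 56.2% were called, with 26.8% higher and 29.4% lower. For the 27 ring, base and lid subunits the share was 51.9%, with 40.7% higher and 11.1% lower, so that the total share of calls was near that of the genes above this floor of brightness, while more subunits were called higher than lower. Only the floor was matched, not the distribution of brightness. Their median change was 0.11, against -0.01 over those bright genes and 0.00 over all genes. The log2 change of each of the 36 lay between -0.96 and 0.82. Of the 36, 0 passed 1 in size, against 204 of the 3128 bright genes. The median size of the change, without its sign, was 0.277 over the 36. It was 0.283 over the bright genes and 0.16 over all genes, so the members changed about as much as bright genes. In 77.8% of the 36 the values of the groups did not overlap, against 43% of all genes and 75.7% of the bright ones.

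**Figure D1:**
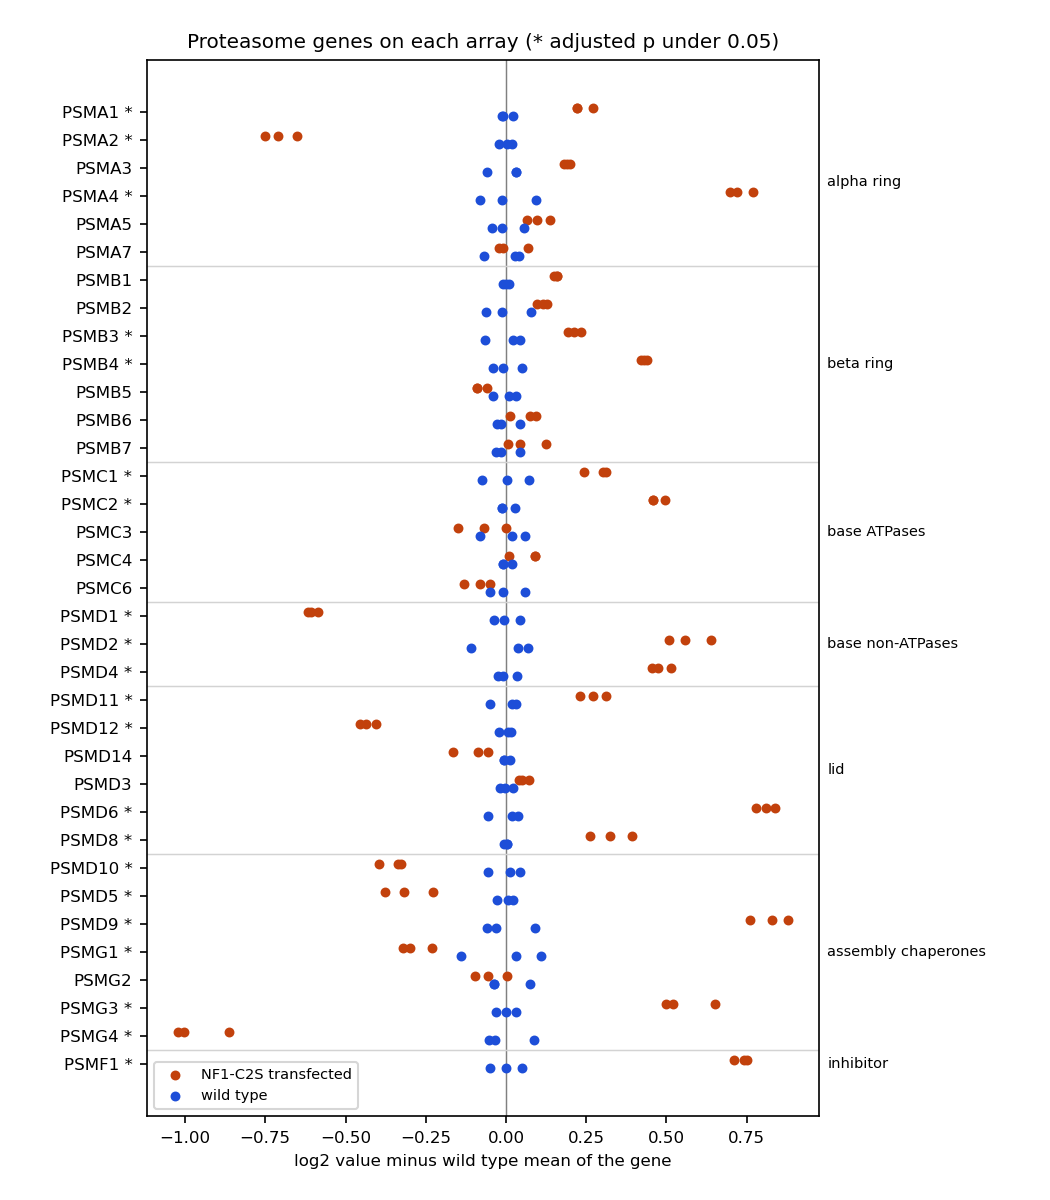
Each row is a proteasome gene and each point an array, as the log2 value minus the wild type mean of that gene (3 transfected and 3 wild type arrays), and an asterisk marks adjusted p under 0.05. The transfected points lie furthest right for PSMD9, PSMD6, PSMF1 and PSMA4 and furthest left for PSMG4, PSMA2 and PSMD1.

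By part, 4 of 13 measured core genes rose and 1 fell, with a median change of 0.11. Of 14 measured cap genes 7 rose and 2 fell, with a median of 0.17. PSMA6, without a probe set of its own, is not among the 13, although both of its shared probe sets fell (-0.33 and -0.73). SEM1, a lid subunit outside the symbol rule that rose by 0.77, is not among the 14. Called shares were 38.5% for the core and 64.3% for the cap, against 31.9% of all genes and 56.2% of the bright genes. The count of higher core genes was 2 without transfected replicate 2 or 3 or any wild type replicate, and 3 without transfected replicate 1. The per-array median deviation of the core genes from their own means was 0.07, 0.05 and 0.09 in transfected arrays, against 0.01, -0.06 and -0.09 in wild type arrays. For the cap genes it was 0.11, 0.06 and 0.08 in transfected arrays, against -0.06, -0.07 and -0.10 in wild type arrays. In both parts the groups did not overlap. The assembly chaperones went the other way by count, with 2 of 7 higher (28.6%) and 4 lower (57.1%). Their called share was 85.7%, against 31.9% of all genes and 56.2% of the bright genes, and their median was -0.28. That median was -0.13 with the probe sets of each gene averaged, when the calls of PSMD5 and PSMG4 ended, and -0.05 without probe sets ending in _x_at, _s_at or _a_at.

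**Figure D2:**
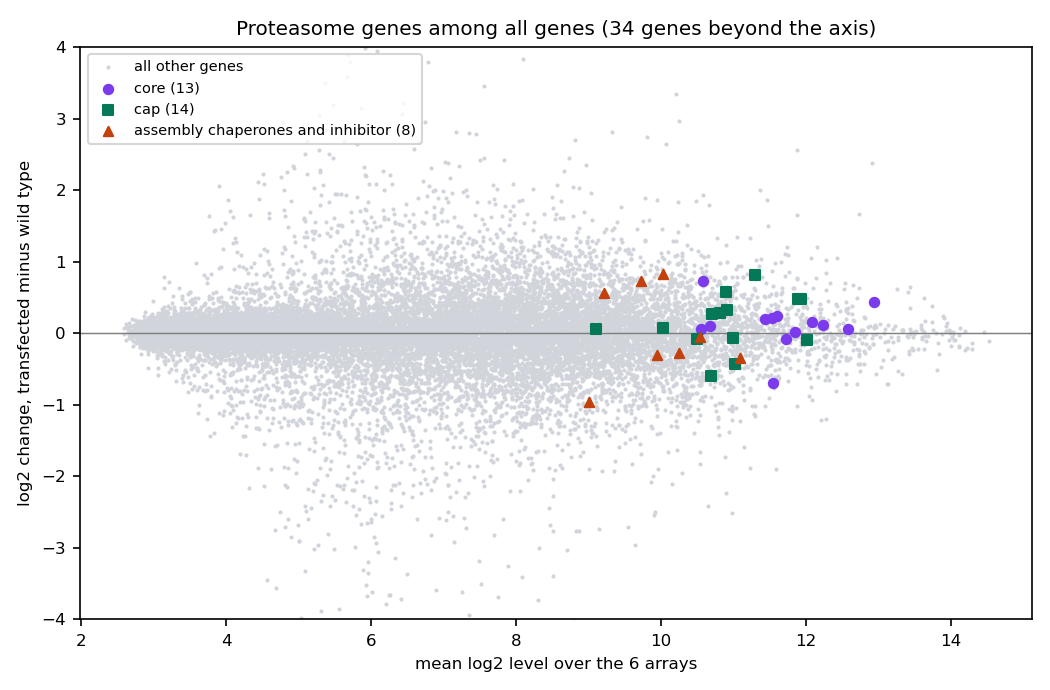
Each point is a gene, with the mean log2 level over the 6 arrays on the x axis and the log2 change (transfected minus wild type) on the y axis, and the coloured marks are 13 core, 14 cap and 8 assembly or inhibitor genes. The marks sit at the bright end and all within 1 log2 unit of no change, while some grey points of equal brightness spread further.

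Upstream sequences of 5 members are shown because promoter motifs are the known route by which proteasome genes are raised together, and because these members include the largest rise (PSMD9), the largest rise and the lid fall among lid subunits (PSMD6 and PSMD12), the largest core fall (PSMA2) and a core rise with motifs of both kinds (PSMB3). They are the 250 bases before the start of the gene from RefSeq (GRCh38.p14), written 5′ to 3′ on the gene's strand, and capitals mark matches to the antioxidant response element core TGACNNNGC or to the CCAAT box on either strand. PSMD9 is at chr12:121888540-121888789 on the plus strand, PSMD6 at chr3:64023495-64023744 on the minus strand, PSMD12 at chr17:67366578-67366827 on the minus strand, PSMA2 at chr7:42932175-42932424 on the minus strand and PSMB3 at chr17:38752491-38752740 on the plus strand.
PSMD9: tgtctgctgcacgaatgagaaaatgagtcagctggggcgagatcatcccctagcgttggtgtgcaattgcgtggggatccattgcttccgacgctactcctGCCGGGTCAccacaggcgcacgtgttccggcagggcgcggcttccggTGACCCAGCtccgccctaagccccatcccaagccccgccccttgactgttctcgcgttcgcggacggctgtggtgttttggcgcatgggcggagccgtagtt
PSMD6: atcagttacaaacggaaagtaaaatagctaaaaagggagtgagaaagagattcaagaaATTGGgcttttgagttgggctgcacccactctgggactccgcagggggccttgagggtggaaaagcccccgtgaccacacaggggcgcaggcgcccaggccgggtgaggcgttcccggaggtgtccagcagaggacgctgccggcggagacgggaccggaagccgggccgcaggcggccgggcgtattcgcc
PSMD12: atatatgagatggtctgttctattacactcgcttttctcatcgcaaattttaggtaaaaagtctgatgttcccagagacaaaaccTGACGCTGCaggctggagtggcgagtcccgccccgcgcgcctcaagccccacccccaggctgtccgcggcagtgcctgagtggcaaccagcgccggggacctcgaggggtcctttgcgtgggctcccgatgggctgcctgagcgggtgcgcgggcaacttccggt
PSMA2: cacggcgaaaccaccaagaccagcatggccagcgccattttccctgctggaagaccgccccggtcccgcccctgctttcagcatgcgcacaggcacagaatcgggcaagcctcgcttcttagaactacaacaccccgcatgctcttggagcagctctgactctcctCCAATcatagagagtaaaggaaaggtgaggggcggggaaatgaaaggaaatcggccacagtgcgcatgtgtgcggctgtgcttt
PSMB3: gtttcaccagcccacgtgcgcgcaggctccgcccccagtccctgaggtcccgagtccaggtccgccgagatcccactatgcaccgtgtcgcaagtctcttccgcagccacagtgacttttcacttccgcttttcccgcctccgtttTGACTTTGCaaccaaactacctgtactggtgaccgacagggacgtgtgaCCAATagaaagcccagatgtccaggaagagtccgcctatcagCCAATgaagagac

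RefSeq promoters of 300 bases, from 250 before to 50 after the start, matched 35 of the 41 listed members. The element core TGACNNNGC was found on either strand in 9 of these 35 (25.7%), against 13.56% of 27305 promoters of the same length outside chromosome 8. It was in 2 of the 12 members with a promoter that rose (PSMB3 and PSMD9, the last with 2 matches), in 4 of the 7 that fell (PSMD1, PSMD12, PSMD5 and PSMG1) and in 3 of the 11 that did not pass (PSMC4, PSMD3 and PSMG2). The CCAAT box, a common promoter element, was in 17 of 35 (48.6%) against 35.7% of the 27305 promoters. It was in 4 of the 12 that rose, 3 of the 7 that fell and 7 of the 11 that did not pass. The full nuclear factor I palindrome was in 0 of 35, and in 9 of the 27305 promoters. These matches are a description of letters in the window and say nothing about binding.

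In the alpha ring, PSMA4 rose and PSMA2 fell by nearly the same amount. PSMA4 read 10.94, 10.99 and 10.92 in transfected arrays, against 10.21, 10.14 and 10.31 in wild type arrays, a rise by 0.73 (SE 0.07, limma adjusted p = 0.000246) or 1.66-fold. PSMA2 read 11.18, 11.24 and 11.14 in transfected arrays, against 11.87, 11.91 and 11.89 in wild type arrays, a difference of -0.70 (SE 0.07, limma adjusted p = 0.000166) or 1.63-fold lower. The lowest array of the higher group lay above the highest of the other in each case, by far more than the spread within a group. All 4 probe sets of PSMA2 fell, from -0.70 to -1.11, although those with the largest falls are also assigned to the neighbouring gene C7orf25. PSMA1 read 11.71, 11.76 and 11.71 in transfected arrays, against 11.48, 11.51 and 11.48 in wild type arrays, a rise by 0.24 (limma adjusted p = 0.0235). That call ended without transfected replicate 2 or 3 or any wild type replicate (adjusted p = 0.0526 to 0.0866).

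PSMA6 has no probe set of its own on this array, since both of its probe sets are assigned to PRORP as well. The brighter one read 12.31, 12.27 and 12.26 in transfected arrays, against 12.61, 12.56 and 12.66 in wild type arrays, a change of -0.33 (SE 0.07, limma adjusted p = 0.0135 over all probe sets). The dimmer one changed by -0.73 (adjusted p = 0.000351), and in both the groups did not overlap. PSMA3, PSMA5 and PSMA7 read 0.19, 0.10 and 0.01 and did not pass (adjusted p = 0.064, 0.335 and 0.926). PSMA3 passed with cyclic loess, with trend and robust moderation, among bright probe sets alone and after the neighbours' shift was subtracted. The alpha subunits thus included changes of opposite sign within 1 ring of a fixed make-up. PSMA8, the testis form of an alpha subunit, lay under the median of all values at 3.05 in transfected and 3.13 in wild type arrays.

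In the beta ring, none of the catalytic subunits passed the test. PSMB5, the chymotrypsin-like subunit and target of the drug bortezomib, read 11.71, 11.68 and 11.68 in transfected arrays, against 11.80, 11.73 and 11.78 in wild type arrays, a difference of -0.08 with a 95% interval of -0.23 to 0.07 (limma adjusted p = 0.429). PSMB6, the caspase-like subunit, differed by 0.06 (interval -0.09 to 0.21) and PSMB7, the trypsin-like subunit, by 0.06 (interval -0.10 to 0.22). The intervals leave room for differences of about 0.2 in size, and a p that misses the threshold does not show that the groups are alike. Among the subunits without an active site, PSMB4 read 13.15, 13.16 and 13.17 in transfected arrays, against 12.78, 12.72 and 12.69 in wild type arrays, a rise by 0.43 (SE 0.06, limma adjusted p = 0.00169). A second bright PSMB4 probe set rose by 0.58, while a dimmer one read -0.10 (adjusted p = 0.655 over probe sets). PSMB3 rose by 0.21 (limma adjusted p = 0.0456), with values of 11.66, 11.64 and 11.62 in transfected arrays, against 11.47, 11.45 and 11.36 in wild type arrays. The PSMB3 call was lost with the replicate number as a block (adjusted p = 0.0587), over all probe sets (0.0824) and without any 1 of the 6 arrays (0.0789 to 0.118). PSMB1 and PSMB2 read 0.16 and 0.11 (adjusted p = 0.0989 and 0.287), and no beta subunit fell.

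In the base, 2 of 5 measured ATPases rose and the other 3 did not pass. PSMC2 read 12.11, 12.11 and 12.15 in transfected arrays, against 11.68, 11.64 and 11.64 in wild type arrays, a rise by 0.47 (SE 0.06, limma adjusted p = 0.000954). Its other probe sets read 0.47 and 0.38, the last without passing the test (adjusted p = 0.197 over probe sets). PSMC1 read 10.98, 10.92 and 10.99 in transfected arrays, against 10.75, 10.68 and 10.60 in wild type arrays, a rise by 0.29 (limma adjusted p = 0.0177) that was lost without transfected replicate 3 or wild type replicate 2 or 3 (adjusted p = 0.0524 to 0.0559). PSMC3, PSMC4 and PSMC6 differed by -0.07, 0.06 and -0.09 (adjusted p = 0.558, 0.551 and 0.425).

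The large scaffold subunits of the base, PSMD1 and PSMD2, moved in opposite directions. PSMD2 read 11.25, 11.17 and 11.12 in transfected arrays, against 10.65, 10.68 and 10.50 in wild type arrays, a rise by 0.57 (SE 0.08, limma adjusted p = 0.00112). PSMD1 read 10.37, 10.38 and 10.40 in transfected arrays, against 11.03, 10.95 and 10.98 in wild type arrays, a change of -0.60 (SE 0.06, limma adjusted p = 0.000311). The second PSMD1 probe set fell by 0.73, so both agree in sign. PSMD4, which binds ubiquitin chains, read 12.20, 12.14 and 12.16 in transfected arrays, against 11.66, 11.72 and 11.68 in wild type arrays, a rise by 0.48 (limma adjusted p = 0.000935). All 3 bright PSMD4 probe sets rose, by 0.48 to 0.50, and a dim one read 0.27 (adjusted p = 0.26 over probe sets).

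In the lid, 3 of the 6 measured subunits with PSMD symbols rose, 1 fell and 2 did not pass. The lid subunit SEM1, outside the symbol rule, is given below with the proteins that bind the cap. PSMD6 had the largest rise of any subunit: it read 11.70, 11.67 and 11.73 in transfected arrays, against 10.93, 10.91 and 10.83 in wild type arrays, a rise by 0.81 (SE 0.07, limma adjusted p = 9.2e-05) or 1.75-fold. PSMD8 read 11.07, 11.01 and 11.14 in transfected arrays, against 10.75, 10.74 and 10.75 in wild type arrays, a rise by 0.33 (limma adjusted p = 0.00782). PSMD12 read 10.78, 10.80 and 10.83 in transfected arrays, against 11.24, 11.25 and 11.21 in wild type arrays, a change of -0.43 (SE 0.06, limma adjusted p = 0.00144). Its second, dimmer probe set read -0.12 (adjusted p = 0.554 over probe sets). PSMD11, the lid subunit that braces the cap against the core, rose by 0.27 (limma adjusted p = 0.017), and by 1.00 on a dimmer probe set. The PSMD11 call ended without transfected replicate 1 or 2 or wild type replicate 3 (adjusted p = 0.0502 to 0.0566). PSMD14, the ubiquitin-removing enzyme, read -0.10 (interval -0.26 to 0.05, adjusted p = 0.314) and PSMD3 read 0.05 (interval -0.09 to 0.20, adjusted p = 0.601).

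The assembly chaperones ranged from -0.96 to 0.82, the low end resting on 1 probe set of PSMG4. PSMG3 and PSMG4, which act as a pair in building the alpha ring, differed in direction. PSMG3 read 9.44, 9.46 and 9.59 in transfected arrays, against 8.94, 8.91 and 8.97 in wild type arrays, a rise by 0.56 (SE 0.07, limma adjusted p = 0.000796). PSMG4 read 8.47, 8.49 and 8.63 in transfected arrays, against 9.46, 9.58 and 9.44 in wild type arrays, a change of -0.96 (SE 0.08, limma adjusted p = 9.1e-05) or 1.95-fold lower. Only the bright PSMG4 probe set fell. The other 4 lay at 2.84 to 4.87 in group means and read -0.05 to 0.16, none past the test (adjusted p = 0.381 to 0.905 over probe sets), and the mean of all 5 read -0.14 (adjusted p = 0.219). The other pair that builds the alpha ring is PSMG1 with PSMG2. PSMG1 fell by 0.28 (limma adjusted p = 0.0381, but 0.0594 over all probe sets and 0.0694 to 0.12 without any transfected replicate or wild type replicate 1 or 2), and PSMG2 read -0.05 (adjusted p = 0.678).

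The base chaperones PSMD5, PSMD9 and PSMD10 each hold 1 or more ATPases during assembly. PSMD9 read 10.45, 10.38 and 10.50 in transfected arrays, against 9.56, 9.59 and 9.71 in wild type arrays, the largest rise of all members, by 0.82 (SE 0.07, limma adjusted p = 0.000147) or 1.77-fold. A second, much dimmer PSMD9 probe set read 0.17 (adjusted p = 0.546 over probe sets). PSMD10, also known as gankyrin, fell by 0.35 (limma adjusted p = 0.00525) and by 0.47 on its second probe set, and PSMD5 fell by 0.31 (limma adjusted p = 0.0122), with a dim probe set at 0.06. The mean of both probe sets of PSMD5 read -0.13 and did not pass (adjusted p = 0.192). PSMF1, known as an inhibitor of the purified core, read 10.11, 10.07 and 10.10 in transfected arrays, against 9.31, 9.36 and 9.41 in wild type arrays, a rise by 0.73 (SE 0.07, limma adjusted p = 0.000136). The remaining PSMF1 probe sets read 1.00, 0.52 and 0.31, of which the last did not pass (adjusted p = 0.348 over probe sets).

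**Figure D3:**
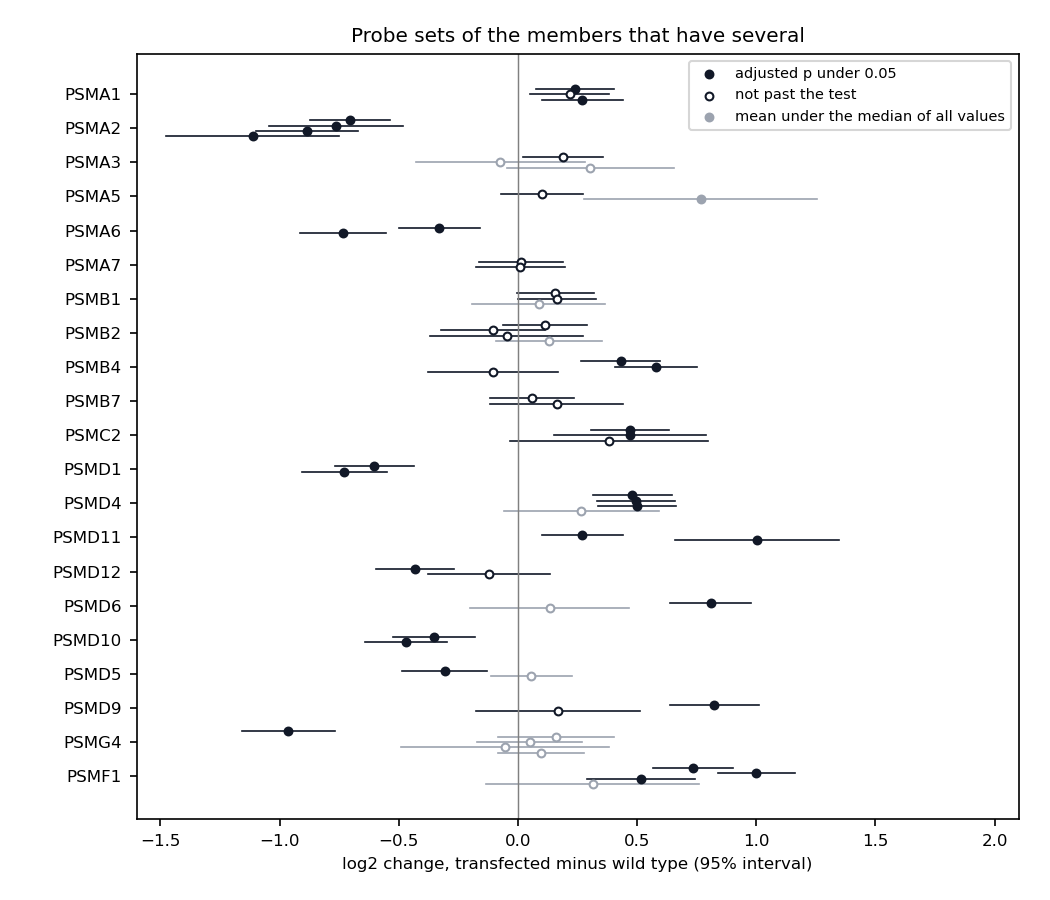
Log2 change (transfected minus wild type, x axis) with its 95% interval for each probe set of the members that have several, filled where adjusted p over all probe sets was under 0.05 and grey where the mean over the 6 arrays was under the median of all values. Filled points of 1 gene lie on the same side of 0 throughout, as for the 4 of PSMA2 and the 3 of PSMD4 and PSMF1.

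Over all probe sets, 22 of the 74 member probe sets rose, 13 fell and 39 did not pass, against 22.2% of all 54613 probe sets called. Of the 60 member probe sets above the median of all values, 21 rose and 13 fell. Among all 27425 probe sets above that median, 5235 rose and 5392 fell. Of the 37 members, 21 have several probe sets, and in 0 of them were probe sets called in opposite directions. In 10 members at least 2 probe sets were called the same way. Of the 14 member probe sets under the median of all values, 1 was called, a dim one of PSMA5 that read 0.77 beside 0.10 on the bright one.

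Over the members as a set, changes correlated with those of their chromosome neighbours. For each gene, the median shift of up to 10 measured genes on either side was taken, in the order of RefSeq (GRCh38.p14). Over 36 members the change of the gene and the shift of its neighbours had a Pearson correlation of 0.66 and a Spearman correlation of 0.59, against a Pearson correlation of 0.30 over 19738 genes. A neighbour shift over 0.2 in size was seen for 5 of the 36. Of these, PSMD9, PSMA2, PSMD12 and PSMD1 went with their neighbours, and PSMB1 went against them (0.16, beside a shift of -0.25). The correlation is a description: the values share arrays, and members that lie close together share neighbours. The 19738 genes were not matched to the members in brightness. PSMD9 on chromosome 12 had the largest shift around it (0.56), and its rise was 0.27 after that shift was subtracted, which still passed the test (limma adjusted p = 0.0306). On chromosome 7 the neighbours of PSMA2 shifted by -0.43, and PSMA2 read -0.28 after subtraction (adjusted p = 0.0289). PSMD12 on chromosome 17 read -0.10 (adjusted p = 0.35) after a shift of -0.33 was subtracted, so that its call was lost, as were those of PSMB3, PSMD11, PSMG1 and PSMG3 (0.16, 0.17, -0.23 and 0.36). In contrast, PSMF1, PSMD2 and PSMG4 had neighbours that read -0.03, -0.12 and -0.09. Subtraction left 13 members higher and 5 lower, of which 16 were among the 21 called before, and added PSMA3 and PSMB1. Whether a change of the chromosome regions had a part in these results was not tested.

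**Figure D4:**
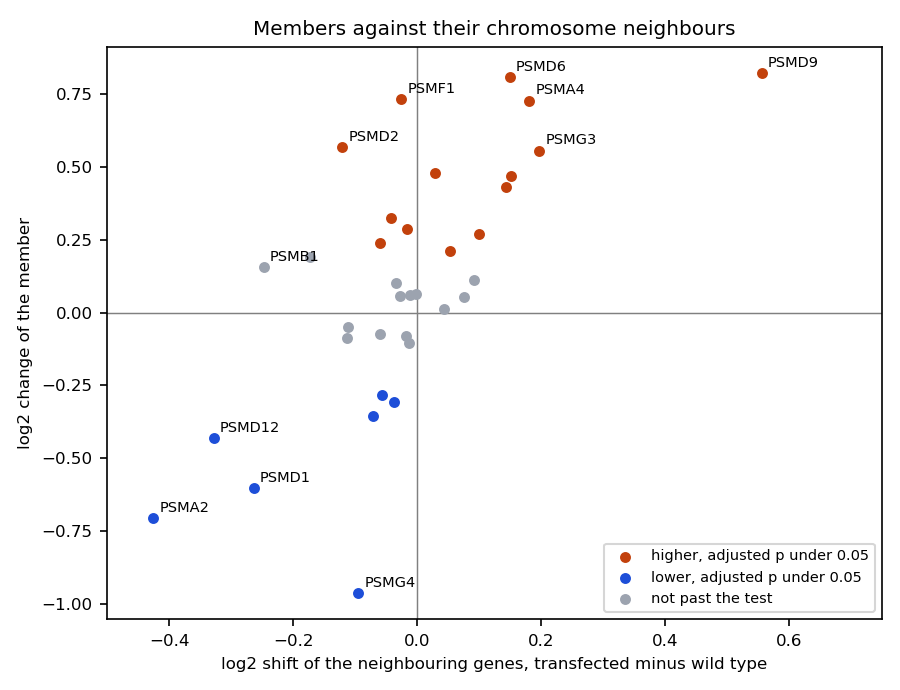
Each point is a proteasome gene, with the median log2 shift of its chromosome neighbours on the x axis and its own log2 change on the y axis (both transfected minus wild type). PSMD9 lies at the upper right and PSMA2, PSMD1 and PSMD12 at the lower left, while PSMF1, PSMD2 and PSMG4 lie near 0 on the x axis.

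All 3 immunoproteasome subunits, which replace catalytic beta subunits in cells exposed to interferon, rose. PSMB9 read 8.19, 8.16 and 8.32 in transfected arrays, against 7.13, 7.09 and 7.41 in wild type arrays, a rise by 1.01 (SE 0.10, limma adjusted p = 0.000256), beside -0.08, 0.06 and 0.06 for the constitutive PSMB5, PSMB6 and PSMB7. PSMB8 read 8.86, 8.79 and 8.87 in transfected arrays, against 8.55, 8.45 and 8.64 in wild type arrays, a rise by 0.29 (limma adjusted p = 0.0212). PSMB10 rose by 0.27 (limma adjusted p = 0.0175). The call of PSMB8 was lost without transfected replicate 1 or 3 or wild type replicate 1 or 2 (adjusted p = 0.0506 to 0.0719), and that of PSMB10 without transfected replicate 1 or wild type replicate 1 or 3 (0.0517 to 0.0556). The difference between the immunoproteasome and the constitutive subunits was not tested. Of 3 measured ring and single-chain activators 1 rose by its brightest probe set, PSME1, an interferon-inducible activator subunit. It read 11.48, 11.49 and 11.44 in transfected arrays, against 11.00, 10.84 and 11.13 in wild type arrays (log2 change 0.48, limma adjusted p = 0.00443). PSME4 read 0.07 on its brightest probe set and 0.05 on another, while a dimmer one rose by 0.54 (adjusted p = 0.00131 over probe sets). With its probe sets averaged PSME4 passed (0.22, adjusted p = 0.0435).

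Among 17 measured proteins that bind the cap, deliver substrates to it or help assembly, 7 rose, 1 fell and 9 did not pass, with a median of 0.14. Their called share was 47.1%, against 31.9% of all genes and 56.2% of the bright genes. The call of POMP, a core assembly factor that was 1 of the 7, was lost with the replicate block (adjusted p = 0.0622) and without any 1 array (0.0584 to 0.106). UCHL5, another of the 7, was lost without transfected replicate 2 or 3 or wild type replicate 2 or 3 (adjusted p = 0.0502 to 0.0834), and PAAF1, the 1 that fell, without wild type replicate 1 or 2 (0.0577 and 0.0571). After the neighbours' shift was subtracted, UCHL5 and UBQLN4, also 1 of the 7, did not pass (0.13 and 0.12, adjusted p = 0.335 and 0.316). USP14, 1 of the 9, read -0.07 on its brightest probe set. Its dimmer probe sets rose by 0.56 and 0.71 (adjusted p = 0.00172 and 0.000403 over probe sets). POMP, UCHL5, PAAF1, UBQLN4 and USP14 are named here after their values were seen. SEM1, the smallest lid subunit, read 11.02, 10.99 and 11.00 in transfected arrays, against 10.31, 10.30 and 10.09 in wild type arrays, a rise by 0.77 (SE 0.08, limma adjusted p = 0.000304). The ubiquitin ligase UBE3A read 9.76, 9.84 and 9.90 in transfected arrays, against 9.01, 9.19 and 9.02 in wild type arrays, a rise by 0.76 (limma adjusted p = 0.000315), and 3 more of its 8 probe sets rose, by 0.74 to 0.95, while the 4 dimmest read -0.02 to 0.31 and did not pass. Of 15 measured regulators of proteasome genes, 3 rose and 2 fell, with a median of -0.03, a called share of 33.3% against 31.9% of all genes. MAFF, a small Maf protein that pairs with NFE2L1, read 11.48, 11.51 and 11.75 in transfected arrays, against 10.71, 10.66 and 10.54 in wild type arrays, a rise by 0.94 (SE 0.10, limma adjusted p = 0.000254). NGLY1, an enzyme that removes sugars from NFE2L1 and so makes it active, read 8.72, 8.86 and 8.90 in transfected arrays, against 9.67, 9.67 and 9.62 in wild type arrays, a change of -0.83 (SE 0.07, limma adjusted p = 0.000143), and a dimmer probe set read -0.23 (adjusted p = 0.267 over probe sets). With the shift of its chromosome neighbours subtracted, NGLY1 read -0.28 (adjusted p = 0.0222). The other 3 called regulators are named after their values were seen. NFE2L1 rose by 0.44 (limma adjusted p = 0.0131), by 0.40 to 0.44 on its 3 probe sets. Its relative NFE2L3 fell by 0.82 (limma adjusted p = 0.0014), and BACH1, a repressor that binds antioxidant response elements, rose by 0.76 (limma adjusted p = 0.00296). Of 3 measured ubiquitin genes and activating enzymes 1 rose, UBA6, by 0.58 (limma adjusted p = 0.00238), with 9.60, 9.65 and 9.63 in transfected arrays, against 8.87, 9.18 and 9.10 in wild type arrays.

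The COP9 signalosome is a separate complex whose subunits are related to those of the lid and which removes NEDD8 from cullin ubiquitin ligases. Its 10 measured genes split more widely than the lid, with 3 higher, 6 lower and 1 not past the test (median -0.47). The 6 measured PSMD genes of the lid had 3 higher and 1 lower (median 0.16), and this difference between the complexes was not tested. The called share was 90%, against 31.9% of all genes and 56.2% of the bright genes. The GPS1 call (lower) ended without transfected replicate 2 or 3 or any wild type replicate (adjusted p = 0.0612 to 0.078). It also ended after the neighbours' shift was subtracted (-0.08, adjusted p = 0.515). COPS3, called higher, was lost without transfected replicate 3 (0.0532) and after subtraction (0.16, adjusted p = 0.179). COPS8 read 10.09, 10.17 and 10.13 in transfected arrays, against 11.44, 11.43 and 11.46 in wild type arrays, a change of -1.31 (SE 0.06, limma adjusted p = 1.2e-05). COPS9 read 9.81, 9.87 and 9.83 in transfected arrays, against 11.00, 11.03 and 10.90 in wild type arrays, a change of -1.14 (SE 0.07, limma adjusted p = 2.9e-05), and a dim probe set read 0.22 (adjusted p = 0.303 over probe sets). COPS7B, COPS8 and COPS9 lie on chromosome 2, as does PSMD1, and their neighbours shifted by -0.27, -0.31 and -0.44, beside -0.26 for PSMD1. After subtraction COPS8 and COPS9 read -1.01 and -0.70.

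**Figure D5:**
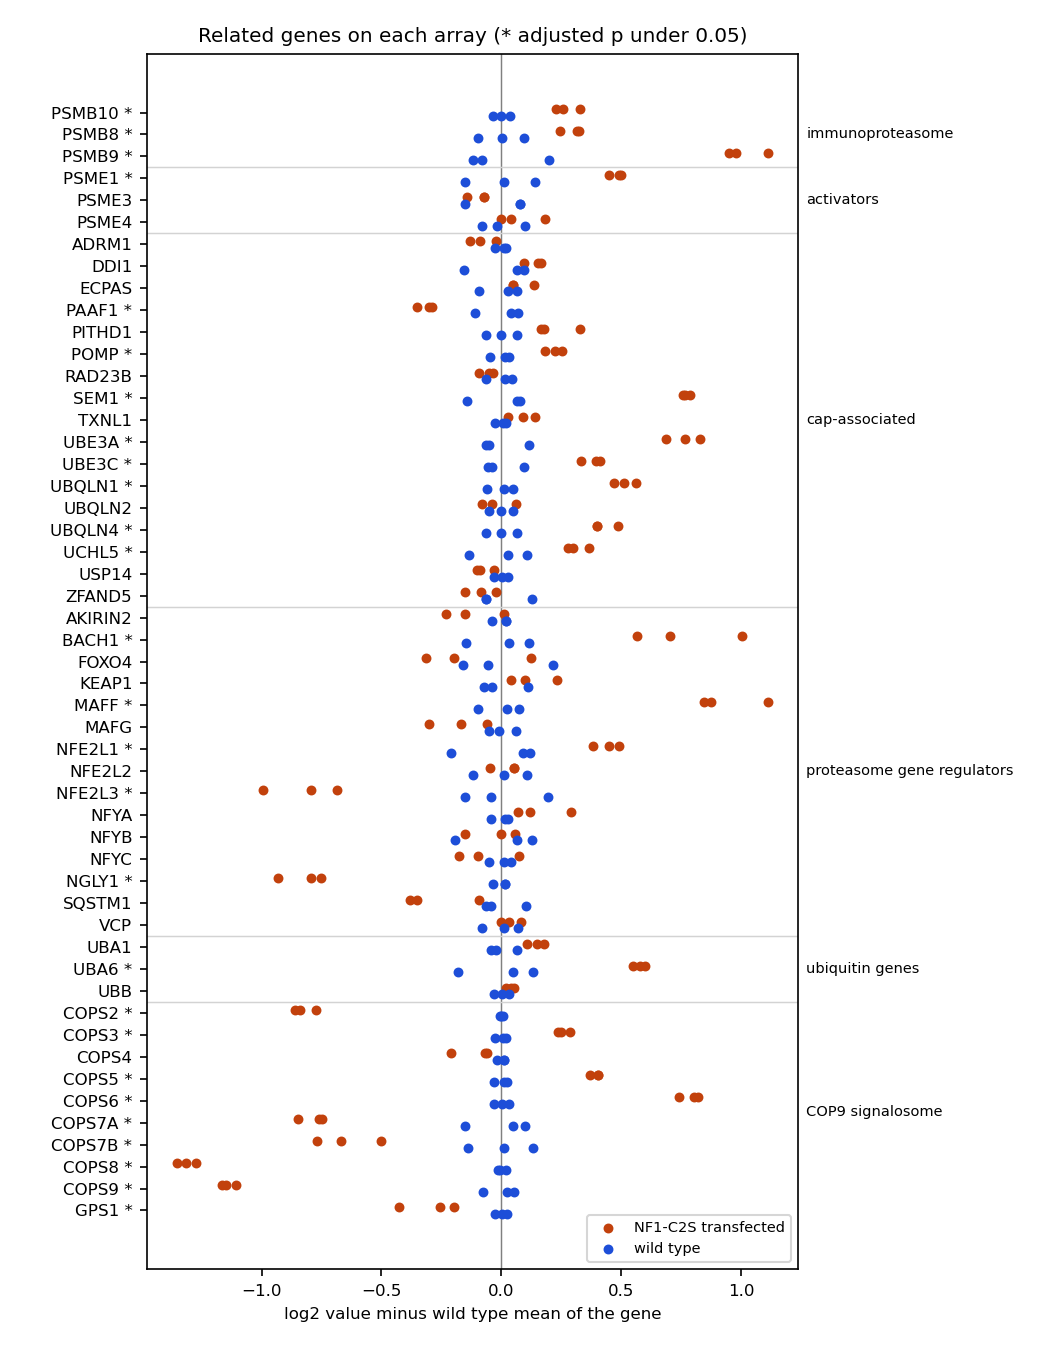
Related genes in 6 lists, each point an array, as the log2 value minus the wild type mean of the gene (3 transfected and 3 wild type arrays), with an asterisk for adjusted p under 0.05. PSMB9 stands to the right of the immunoproteasome list, and COPS8 and COPS9 lie furthest left.

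Among the 7 genes that match the rule only by their letters, 2 rose and 5 did not pass, while 31.9% of all genes were called. PSMC3IP, a recombination factor, rose by 0.39 (limma adjusted p = 0.0168), a call lost without transfected replicate 3 or wild type replicate 3 (adjusted p = 0.0543 and 0.057). PSMD6-AS2, which lies beside PSMD6 on chromosome 3, averaged 5.72 ± 0.27 in transfected and 5.25 ± 0.14 in wild type arrays (SD, n = 3 each), a rise by 0.47 (limma adjusted p = 0.0397). That call ended over all probe sets (adjusted p = 0.0508) and without transfected replicate 2 or 3 or wild type replicate 1 or 3 (0.107 to 0.13). PSMB8-AS1, PSMD7-DT and PSMD14-DT lay under the median of all values in both groups.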

How the data were processed

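Expression was measured on Affymetrix arrays with 54675 probe sets. The authors deposited log2 values, 1 column per array, made with RMA per the submitters' processing notes; neither its version nor which arrays it normalized jointly is stated. Differences of dim probe sets come out smaller after RMA. The 62 control probe sets were left out. Genes were named through the platform annotation, with current symbols by gene identifier from RefSeq GRCh38.p14 (41037 of 41091 probe sets with 1 gene matched).

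Groups were compared with limma 3.58.1 in R 4.3.3 (lmFit, eBayes, two-sided), over 19775 genes for genes and over 54613 probe sets for probe sets, with Benjamini-Hochberg adjustment and a threshold of 0.05. The fit was also run on simulated data with independent noise and few changed genes. Since these arrays differ from that setting, the run does not show how the fit performs on them. The members, lists and the rule for named genes were chosen with earlier results of these data known. By that rule every member is named, and values per array are given for up to 3 called members per part and up to 2 genes per related list. Values per array of PSMB5 and PSMA6 were added outside the rule, after they were seen. The number of arrays limits the precision, with a median SD over probe sets of 0.119 in transfected and 0.11 in wild type arrays.

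Groups share replicate numbers. Deviations from the group means of same-numbered arrays correlated by 0.398, 0.238 and 0.14, all above 0.1, while other pairs gave -0.277 to 0.142. By these correlations the numbers were taken to pair the arrays. For number 3 this is unclear, since its value (0.14) did not exceed that of transfected 3 with wild type 2 (0.142). The labels do not say what a number stands for. The tests above ignore this pairing. Alternatives were a replicate block, other normalizations, variance models, probe set choices, a brightness filter, arrays left out and subtraction of the shift of neighbouring genes.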

Additional observations from a re-analysis of the deposited data

How the results depend on the processing

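Of the 21 called members, 11 kept call and direction under every 1 of the 16 alternatives that measured them (PSMA2, PSMA4, PSMB4, PSMC2, PSMD1, PSMD2, PSMD6, PSMD8, PSMD9, PSMD10 and PSMF1), and 16 did without each array in turn. With the replicate block, 13 members were higher and 7 lower, in place of 14 and 7, and the only member call lost was that of PSMB3. Leaving out probe sets ending in _x_at, _s_at or _a_at, which left 28 of 36 members, gave 9 higher and 3 lower members, 2 higher core genes, 0 lower cap genes (PSMD1 and PSMD12 have only such probe sets and were not measured), a cap median of 0.30 and a chaperone median of -0.05. The count of higher core genes was 7 with trend and robust moderation and 2 to 3 without each array in turn. After subtraction of the neighbours' shift, 1 cap gene was lower and the cap median was 0.12. The chaperone median was -0.13 for the mean of the probe sets of a gene. Values that changed sign, where the value before or after passed the test, were those of PSMG4 (0.16), UBE3A (-0.017), COPS9 (0.22) and USP14 (0.71) without the probe sets with those endings, USP14 (0.40) when its probe sets were averaged, and NFYB (0.32) after subtraction. The causes were not tested. Low signal over background limits what the dim probe sets show.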
